A study of Homo sapiens with 4 samples.

Results

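The 8 genes described here carry the first steps of apoptosis: the initiator caspases CASP8 and CASP9, the death receptors FAS, TNFRSF10A and TNFRSF10B, and the BH3-only genes BBC3, PMAIP1 and BCL2L11. They were chosen by symbol, each matching 1 row among the 53777 rows of the deposited table with an Ensembl gene identifier. GENCODE 29 places CASP8 (ENSG00000064012) and BCL2L11 (ENSG00000153094) on chromosome 2, CASP9 (ENSG00000132906) on chromosome 1 and FAS (ENSG00000026103) on chromosome 10. TNFRSF10A (ENSG00000104689) and TNFRSF10B (ENSG00000120889) lie on chromosome 8, BBC3 (ENSG00000105327) on chromosome 19 and PMAIP1 (ENSG00000141682) on chromosome 18. The libraries came from NUGC3, a cell line of human gastric cancer, and RNA sequencing gave the expression of each gene. There were 2 NIPBL knockdown libraries, 1 with short hairpin 1 and 1 with short hairpin 7 against NIPBL, and they were compared with 2 libraries given a scramble control. NIPBL loads the cohesin ring onto chromosomes, and the comparison asks which transcripts differ when it is lowered. All 4 library names hold the letters DOX, which the labels leave unexplained, and scramble 2 carries the name of scramble 1 plus a suffix. The labels do not state separate cultures within a group, so p-values cover the spread among these libraries alone, and that spread may be technical.

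Apoptosis is started along a pair of routes. Death receptors at the cell surface bind ligands such as FAS ligand and TRAIL and gather the adaptor FADD and CASP8 into a complex in which CASP8 becomes active. In the mitochondrial route BH3-only proteins occupy the pro-survival BCL2 proteins, BAX and BAK1 then open the outer mitochondrial membrane, and cytochrome c and APAF1 activate CASP9. Both routes end in the executioner caspases, and these are proteins cut into their active form, so a transcript level does not show whether a caspase is active.

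The values are the authors' FPKM, read abundance per length of transcript and size of library. They summed to 682076 in the lowest library and 749446 in the highest, with read depth unknown. NIPBL, the gene targeted, was at 7.27 FPKM with hairpin 1 and 9.17 FPKM with hairpin 7, against 23.92 and 23.11 FPKM in the scramble libraries. It fell to 35.0% of the scramble mean (log2 change -1.42 ± 0.14, SE, limma, adjusted p = 0.0218). It lost that call when scramble 1 (log2 change -1.39) or scramble 2 was left out (log2 change -1.44), fits in which no other gene tested passed either. Of the cell type markers, 6 of 6 epithelial genes had a mean of at least 1 FPKM and summed to 4214 and 5144 FPKM in knockdown libraries and 5125 and 5181 FPKM in scramble libraries. Of 6 gastric markers 0 reached that mean, with sums of 2.87 and 1.23 FPKM in knockdown libraries and 0.21 and 0.82 FPKM in scramble libraries, so they lend the gastric label no support. Of 5 leukocyte markers only CD68, which also belongs to lysosomes, reached it; the list summed to 31.6 and 37.8 FPKM in knockdown libraries and 12.4 and 17.1 FPKM in scramble libraries, while PTPRC, the general leukocyte marker, was listed at 0 in all 4 libraries. Of 4 fibroblast markers 1 reached it, COL1A1, at 9.39 and 7.34 FPKM in knockdown libraries and 6.57 and 5.75 FPKM in scramble libraries. Of 3 endothelial markers 0 reached it, with PECAM1 not analysed here. The part of these differences in the results was not tested.

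None of the 8 genes passed the test over all genes. In RNA from whole cultures, fewer cells with a transcript and less of it per cell cannot be told apart. Each was tested as log2(FPKM + 1) with limma, with p-values adjusted by Benjamini and Hochberg over the 12834 genes that had a mean of at least 1 FPKM, and all 8 members entered. At an adjusted p under 0.05, 0 of 8 members were called, where 2.56% of all genes tested were called (1.45% higher and 1.11% lower). At an unadjusted p under 0.05 there were 4 members, CASP8, CASP9 and BBC3 on the higher side and TNFRSF10B on the lower side, where 26.4% of all genes tested lay under that p (13.6% higher and 12.8% lower). In all 8 members the knockdown values did not overlap the scramble values, 6 above and 2 below, and that held for 60.3% of all genes tested (29.5% above and 30.8% below). A gap of at least 1.5-fold between the groups on the log2(FPKM + 1) scale was present in 1 member, BBC3, and in 5.58% of all genes tested (3.3% above and 2.28% below). The median log2 change of the 8 members was 0.30 (0.41 with hairpin 1 alone and 0.18 with hairpin 7 alone), beside -0.01 over all genes tested.

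**Figure D1:**
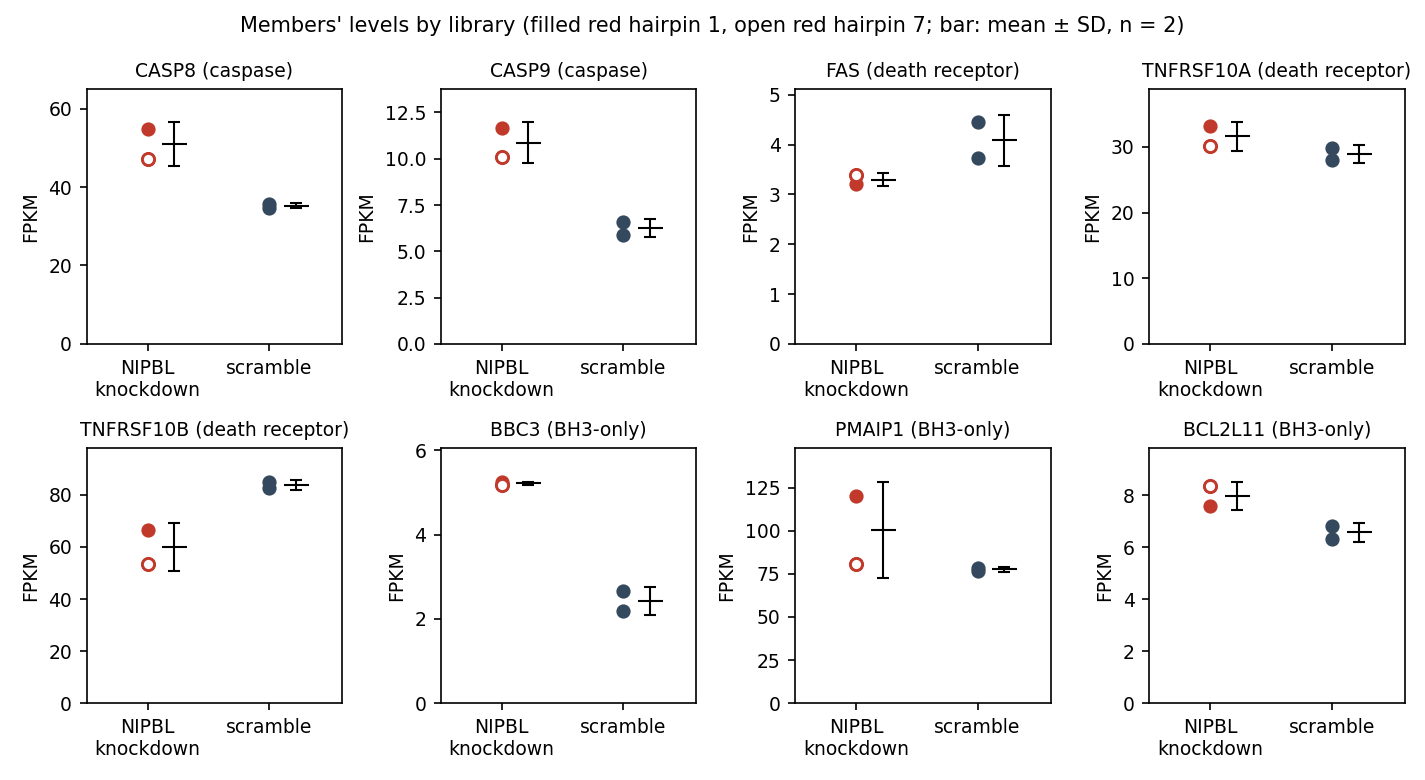
FPKM of each of the 8 genes on the vertical axis in the NIPBL knockdown libraries (red, filled for hairpin 1 and open for hairpin 7) and the scramble libraries (dark blue), with the mean ± SD of 2 libraries beside each group. The groups do not overlap in any panel; the gap is wide for BBC3 and CASP9 and narrow for TNFRSF10A and PMAIP1.

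The promoters of BBC3, CASP9 and CASP8 are shown because these 3 genes were above scramble at an unadjusted p under 0.05. Each is a RefSeq window of 250 bases before to 50 after a gene start in GRCh38.p14, read on the strand of the gene, and capitals mark matches on either strand to the motifs searched. These were the E-box CACGTG, the GC box GGGCGG, the AP-1 site TGANTCA, the CRE TGACGTCA, the shortened ISRE core GAAANNGAA, the GAS element TTCNNNGAA and the forkhead site GTAAACA. Among 35116 windows of this length they occurred in 7.26% (E-box), 45.0% (GC box), 7.71% (AP-1), 1.85% (CRE), 8.11% (ISRE core), 7.66% (GAS) and 3.42% (forkhead).
BBC3, chr19:47232618-47232917, minus strand: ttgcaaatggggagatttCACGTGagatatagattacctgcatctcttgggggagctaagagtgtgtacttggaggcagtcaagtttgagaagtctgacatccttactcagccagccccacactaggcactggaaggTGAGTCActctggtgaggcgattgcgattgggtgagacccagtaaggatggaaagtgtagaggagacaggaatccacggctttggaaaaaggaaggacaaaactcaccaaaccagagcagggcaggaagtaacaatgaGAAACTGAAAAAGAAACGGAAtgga
CASP9, chr1:15524166-15524465, minus strand: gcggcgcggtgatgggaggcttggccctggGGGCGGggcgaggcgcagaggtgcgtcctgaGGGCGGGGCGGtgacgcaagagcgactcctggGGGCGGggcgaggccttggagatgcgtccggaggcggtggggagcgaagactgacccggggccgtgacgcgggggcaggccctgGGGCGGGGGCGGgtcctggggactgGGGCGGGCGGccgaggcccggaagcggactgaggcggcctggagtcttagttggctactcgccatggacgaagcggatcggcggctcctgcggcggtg
CASP8, chr2:201233213-201233512, plus strand: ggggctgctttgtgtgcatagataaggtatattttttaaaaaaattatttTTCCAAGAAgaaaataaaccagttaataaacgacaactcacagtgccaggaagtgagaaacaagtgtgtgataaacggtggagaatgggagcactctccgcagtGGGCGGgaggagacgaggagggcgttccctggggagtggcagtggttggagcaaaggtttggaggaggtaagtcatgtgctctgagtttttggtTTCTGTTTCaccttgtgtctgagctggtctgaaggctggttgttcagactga
The BBC3 window held 1 E-box, 1 AP-1 site and 3 overlapping ISRE cores that lie after the gene start, with 48.0% of its bases G or C. The CASP9 window held 8 GC boxes, some overlapping, none of the other motifs searched, and 76.0% G or C. The CASP8 window held 1 GC box, 1 ISRE core and 1 GAS element, with 46.3% G or C. RefSeq lists other starts for CASP9 and CASP8, and FPKM per gene do not show which start was used. The other CASP8 windows held 1 AP-1 site each and none of the other motifs searched. The other CASP9 window held 9 GC boxes and none of the other motifs searched. A match describes these letters only.

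BBC3 encodes PUMA, a BH3-only protein that binds the pro-survival BCL2 proteins, and its transcript had the highest log2 change of the 8. It was at 5.25 FPKM with hairpin 1 and 5.19 FPKM with hairpin 7, against 2.19 and 2.67 FPKM in the scramble libraries. Both hairpins lay close together and well above both scramble libraries. The mean was 5.22 ± 0.0424 FPKM in knockdown and 2.43 ± 0.339 FPKM in scramble libraries (SD, n = 2 each), a ratio of 2.15. The log2 change was 0.86 ± 0.15 (SE, 95% interval 0.47 to 1.25) and did not pass (limma, adjusted p = 0.0626), although 4.03% of genes tested had a smaller p. BBC3 was among the lowest transcripts of the 8 in every library, and the log2(FPKM + 1) scale understates the change of low genes: with a pseudocount of 0.1 the log2 change was 1.08.

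PMAIP1 encodes NOXA, a BH3-only protein that acts mainly on MCL1. Its transcript was at 120.35 FPKM with hairpin 1 and 80.92 FPKM with hairpin 7, against 76.4 and 78.63 FPKM in the scramble libraries. The hairpins differed here, since hairpin 7 lay just above scramble and hairpin 1 at 155% of the scramble mean. The log2 difference from scramble was 0.63 with hairpin 1 and 0.061 with hairpin 7. Over both, the mean was 101 ± 27.9 FPKM in knockdown and 77.5 ± 1.58 FPKM in scramble libraries (SD, n = 2 each), with a log2 change of 0.34 ± 0.20 (SE, 95% interval -0.18 to 0.87, limma, adjusted p = 0.334). Without hairpin 7 the log2 change of PMAIP1 was 0.63 and passed (limma, adjusted p = 0.0176), a fit in which the spread of hairpin 1 is taken from scramble and 22.7% of all genes tested passed. Without hairpin 1 it was 0.061 and did not pass.

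BCL2L11 encodes BIM, which binds all the main pro-survival BCL2 proteins. It was at 7.6 FPKM with hairpin 1 and 8.37 FPKM with hairpin 7, against 6.83 and 6.31 FPKM in the scramble libraries. All 4 values lay within a narrow range, with hairpin 7 the highest. The mean ratio was 1.22 and the log2 change 0.25 ± 0.12 (SE, 95% interval -0.070 to 0.56, limma, adjusted p = 0.271). BCL2L11 lies across the opposite strand of the long noncoding gene MIR4435-2HG in GENCODE 29, which was at 145.2 and 127.4 FPKM in knockdown libraries and 137.43 and 133.93 FPKM in scramble libraries. The strand setting of the library kit is not given in the sources used here, so reads of the overlap cannot be told apart.

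CASP9, the initiator caspase of the mitochondrial route, was at 11.65 FPKM with hairpin 1 and 10.09 FPKM with hairpin 7, against 5.9 and 6.58 FPKM in the scramble libraries. Both hairpins lay more than 3 FPKM above both scramble libraries. The mean was 10.9 ± 1.10 FPKM in knockdown and 6.24 ± 0.481 FPKM in scramble libraries (SD, n = 2 each), a ratio of 1.74. The log2 change was 0.71 ± 0.13 (SE, 95% interval 0.37 to 1.05) and did not pass (limma, adjusted p = 0.0666).

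CASP8, the initiator caspase that death receptors engage, was at 54.89 FPKM with hairpin 1 and 47.03 FPKM with hairpin 7, against 35.63 and 34.74 FPKM in the scramble libraries. The scramble libraries differed by under 1 FPKM and both hairpins lay above them. The mean was 51.0 ± 5.56 FPKM in knockdown and 35.2 ± 0.629 FPKM in scramble libraries (SD, n = 2 each), a ratio of 1.45. The log2 change was 0.52 ± 0.11 (SE, 95% interval 0.23 to 0.81) and did not pass (limma, adjusted p = 0.0825). Between the initiator caspases CASP8 had the higher FPKM in each library. Both genes have many annotated transcripts in GENCODE 29, 20 for CASP8 and 11 for CASP9, and the table does not split them.

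TNFRSF10B encodes DR5, a death-domain receptor of the ligand TRAIL, and was the member with the lowest log2 change. It was at 66.51 FPKM with hairpin 1 and 53.54 FPKM with hairpin 7, against 85.13 and 82.49 FPKM in the scramble libraries. Both hairpins lay below both scramble libraries, hairpin 7 the further. The mean was 60.0 ± 9.17 FPKM in knockdown and 83.8 ± 1.87 FPKM in scramble libraries (SD, n = 2 each), which is 71.6% of scramble. The log2 change was -0.48 ± 0.13 (SE, 95% interval -0.82 to -0.14) and did not pass (limma, adjusted p = 0.112). RHOBTB2 overlaps TNFRSF10B on the opposite strand, so the strand limit given for BCL2L11 applies. It was at 3.36 and 5.61 FPKM in knockdown libraries and 4.6 and 4.4 FPKM in scramble libraries.

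TNFRSF10A encodes DR4, the other death-domain receptor of TRAIL. It was at 33.1 FPKM with hairpin 1 and 30.05 FPKM with hairpin 7, against 29.83 and 27.98 FPKM in the scramble libraries. Hairpin 7 and scramble 1 differed by less than the scramble libraries did from each other. The log2 change was 0.12 ± 0.10 (SE, 95% interval -0.14 to 0.39, limma, adjusted p = 0.486), so neither a small decrease nor a moderate increase lies outside its interval. Its antisense gene TNFRSF10A-AS1 was at 11.95 and 12.03 FPKM in knockdown libraries and 12.85 and 11.51 FPKM in scramble libraries, and the strand limit given for BCL2L11 applies. The change of TNFRSF10B relative to that of TNFRSF10A was not tested. The decoy receptor genes TNFRSF10C and TNFRSF10D resemble both in sequence, and RSEM, which the submitters' processing notes name, splits reads that fit several genes. TNFRSF10D, named after its values were seen, was at 13.38 and 8.43 FPKM in knockdown libraries and 19.19 and 19.57 FPKM in scramble libraries (log2 change -0.81 ± 0.22, SE, limma, adjusted p = 0.111). TNFRSF10C, also named afterwards, stayed under 3 FPKM in each library.

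FAS, the receptor of FAS ligand, was the lowest of the 3 receptors. It was at 3.21 FPKM with hairpin 1 and 3.39 FPKM with hairpin 7, against 4.45 and 3.73 FPKM in the scramble libraries. The scramble libraries lay further apart than the hairpins did, and the nearest values of the groups were 3.39 and 3.73 FPKM. The mean was 80.7% of scramble and the log2 change -0.24 ± 0.15 (SE, 95% interval -0.63 to 0.15, limma, adjusted p = 0.369). ACTA2 overlaps FAS on the opposite strand. It was at 1.88 and 1.21 FPKM in knockdown libraries and 0.85 and 1.23 FPKM in scramble libraries. The strand limit given for BCL2L11 applies to FAS too. The FAS ligand gene FASLG was listed at 0 in all 4 libraries, and the TRAIL gene TNFSF10 at 0.71 and 0.21 FPKM in knockdown libraries and 0.25 and 0.19 FPKM in scramble libraries; both are named after their values were seen.

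**Figure D2:**
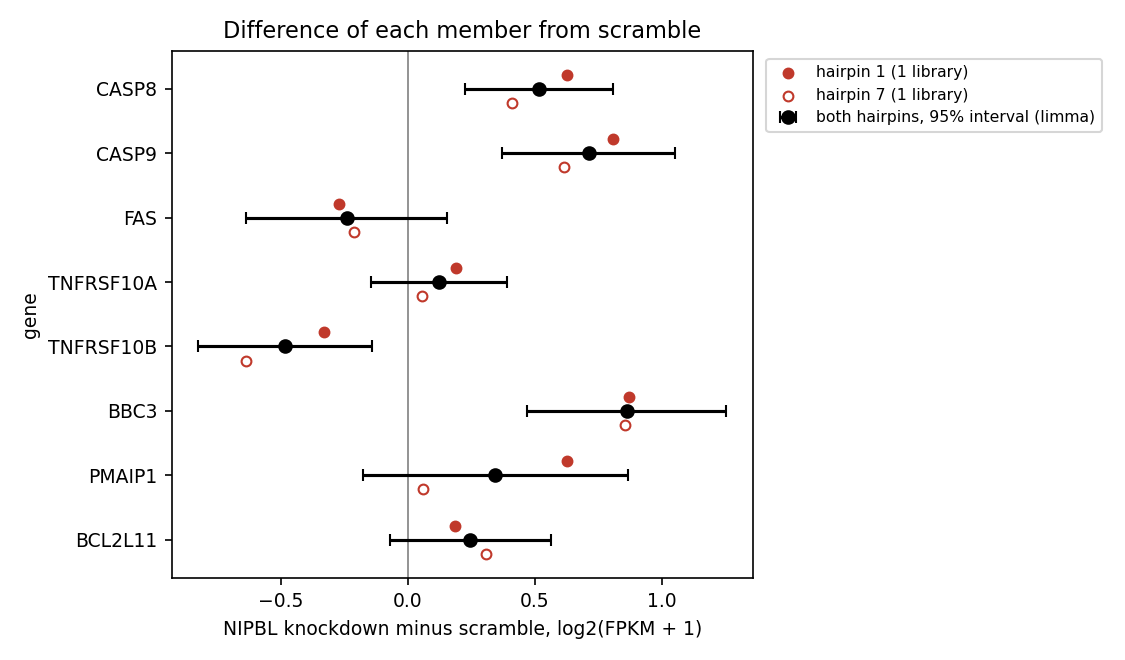
Log2(FPKM + 1) difference of NIPBL knockdown from scramble on the horizontal axis for each of the 8 genes, with the limma estimate and its 95% interval in black and the difference of each hairpin library from the scramble mean in red. The intervals of CASP8, CASP9, TNFRSF10B and BBC3 leave out 0 before adjustment, and the hairpins lie furthest apart for PMAIP1, at 0.63 and 0.061.

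The order of the levels differed between the groups at the top and the bottom. In both knockdown libraries it ran, from the highest, PMAIP1, TNFRSF10B, CASP8, TNFRSF10A, CASP9, BCL2L11, BBC3 and FAS. In scramble 1 it ran TNFRSF10B, PMAIP1, CASP8, TNFRSF10A, BCL2L11, CASP9, FAS and BBC3, and scramble 2 had the same order with CASP9 before BCL2L11. Neighbours that overlapped were TNFRSF10B and CASP8 in the knockdown libraries, at 53.54 to 66.51 and 47.03 to 54.89 FPKM. In the scramble libraries CASP9 and BCL2L11 overlapped, at 5.9 to 6.58 and 6.31 to 6.83 FPKM.

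The difference between hairpins, hairpin 7 minus hairpin 1 on the log2(FPKM + 1) scale, was -0.57 for PMAIP1, -0.31 for TNFRSF10B and -0.22 for CASP8. It was -0.01 for BBC3 and 0.12 for BCL2L11. Over all genes tested the SD of this difference was 0.45, and that between the scramble libraries was 0.28. Each hairpin is 1 library, so these differences have no replicate check.

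BBC3 had the smallest p of the 8, and the protein-coding genes nearest to its profile over the 4 libraries were DYRK1B, IRF2BP2 and TOM1, by the Euclidean distance of gene-centred log2(FPKM + 1). Their distances were 0.054, 0.073 and 0.074. DYRK1B, a kinase gene, was at 5.01 and 4.94 FPKM in knockdown libraries and 2.17 and 2.67 FPKM in scramble libraries. With 4 libraries in 2 groups, many genes can have such a profile, and the distance is a description.

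The wider apoptosis pathway was read from 8 lists holding 62 genes, of which 52 were tested. In these lists 4 genes passed, 2 higher and 2 lower, or 7.69% where 2.56% of all genes tested were called, with a median log2 change of -0.10 (-0.031 with hairpin 1 and -0.12 with hairpin 7) beside -0.01 over all genes. The 4 calls were lost without scramble 1 or scramble 2 and with averaged scramble libraries, fits in which no other gene tested passed either. All 4 were also lost with no filter on low values, where only 1 of all genes tested passed. With FPKM rescaled to the same sum CASP4 and TP63 did not pass (limma, adjusted p = 0.061 and 0.0561), and without a mean trend CASP4 and TNFRSF21 did not (limma, adjusted p = 0.0654 and 0.0615).

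Among 9 other caspase genes 6 were tested, 1 rose and 0 fell (2 higher at an unadjusted p under 0.05, limma), with a median log2 change of -0.10 (-0.031 with either hairpin). The gene that passed was CASP4, an inflammatory caspase that senses bacterial lipopolysaccharide in the cytosol rather than an apoptotic one. It was at 124.91 and 134.5 FPKM in knockdown libraries and 76.64 and 80.21 FPKM in scramble libraries (log2 change 0.72 ± 0.10, SE, limma, adjusted p = 0.0411).

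Of 13 other death receptors, ligands and adaptors 11 were tested, 0 rose and 1 fell (2 higher and 2 lower at an unadjusted p under 0.05, limma), with a median log2 change of 0.00068 (0.13 with hairpin 1 and -0.19 with hairpin 7). It was TNFRSF21, which encodes the death receptor DR6, at 41.27 and 31.02 FPKM in knockdown libraries and 80.77 and 82.14 FPKM in scramble libraries (log2 change -1.16 ± 0.15, SE, limma, adjusted p = 0.0416).

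Of 5 other BH3-only genes 4 were tested and 0 passed (0 at an unadjusted p under 0.05, limma), with a median log2 change of 0.26 over both hairpins, 0.12 with hairpin 1 alone and -0.0077 with hairpin 7 alone. BIK was at 35.63 FPKM with hairpin 1 and 17.1 FPKM with hairpin 7, against 15.46 and 15.44 FPKM in the scramble libraries, and BID had a log2 change of -0.43. Over both hairpins 2 of the 4 genes were above 0 and 2 below. The 2 above differed between hairpins. BIK had a log2 difference of 1.155 with hairpin 1 and 0.14 with hairpin 7. For BMF, named after its values were seen, these were 0.15 and 0.96. Of 6 pro-survival BCL2 genes, the partners of the BH3-only proteins, 3 were tested and 0 passed (1 higher and 1 lower at an unadjusted p under 0.05, limma), with a median log2 change of -0.16. MCL1, the main partner of NOXA, was at 74.41 and 93.87 FPKM in knockdown libraries and 114.84 and 116.43 FPKM in scramble libraries (log2 change -0.46 ± 0.14, SE, limma, adjusted p = 0.128). BCL2L2 had a log2 change of 0.38 (limma, adjusted p = 0.104).

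In limma 0 of the 3 multidomain effector genes passed and 1 was lower at an unadjusted p under 0.05, with a median log2 change of -0.13 over the list (-0.040 with hairpin 1 and -0.22 with hairpin 7); BAK1 had a log2 change of -0.33 and BOK of 0.28. The apoptosome and mitochondrial list had a median log2 change of -0.19 (-0.093 with hairpin 1 and -0.28 with hairpin 7), and 5 of its 6 genes were below 0, as were 51.7% of all genes tested. In limma 0 of them passed, while 1 was lower at an unadjusted p under 0.05. APAF1, the scaffold on which CASP9 is activated, was at 5.3 and 6.26 FPKM in knockdown libraries and 9.07 and 8.93 FPKM in scramble libraries (log2 change -0.56 ± 0.13, SE, limma, adjusted p = 0.0886). Its values therefore lay below scramble in both hairpins where those of CASP9 lay above. HTRA2, a mitochondrial protease gene, had a log2 change of -0.48.

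Of 7 inhibitor of apoptosis genes 6 were tested, 1 rose and 0 fell (2 higher and 1 lower at an unadjusted p under 0.05, limma), with a median log2 change of 0.045 (0.015 with hairpin 1 and 0.085 with hairpin 7). It was BIRC3, whose protein is a ubiquitin ligase of tumour necrosis factor signalling, at 83.79 and 83.97 FPKM in knockdown libraries and 44.52 and 44.29 FPKM in scramble libraries (log2 change 0.90 ± 0.09, SE, limma, adjusted p = 0.0218). Of 13 upstream transcription factors and regulators, all tested, 0 rose and 1 fell (2 higher and 3 lower at an unadjusted p under 0.05, limma), with a median log2 change of -0.028 (0.14 with hairpin 1 and -0.0040 with hairpin 7). It was TP63, a transcription factor gene of basal epithelia, at 6.74 and 8.23 FPKM in knockdown libraries and 18.47 and 18.04 FPKM in scramble libraries (log2 change -1.19 ± 0.13, SE, limma, adjusted p = 0.0283).

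**Figure D3:**
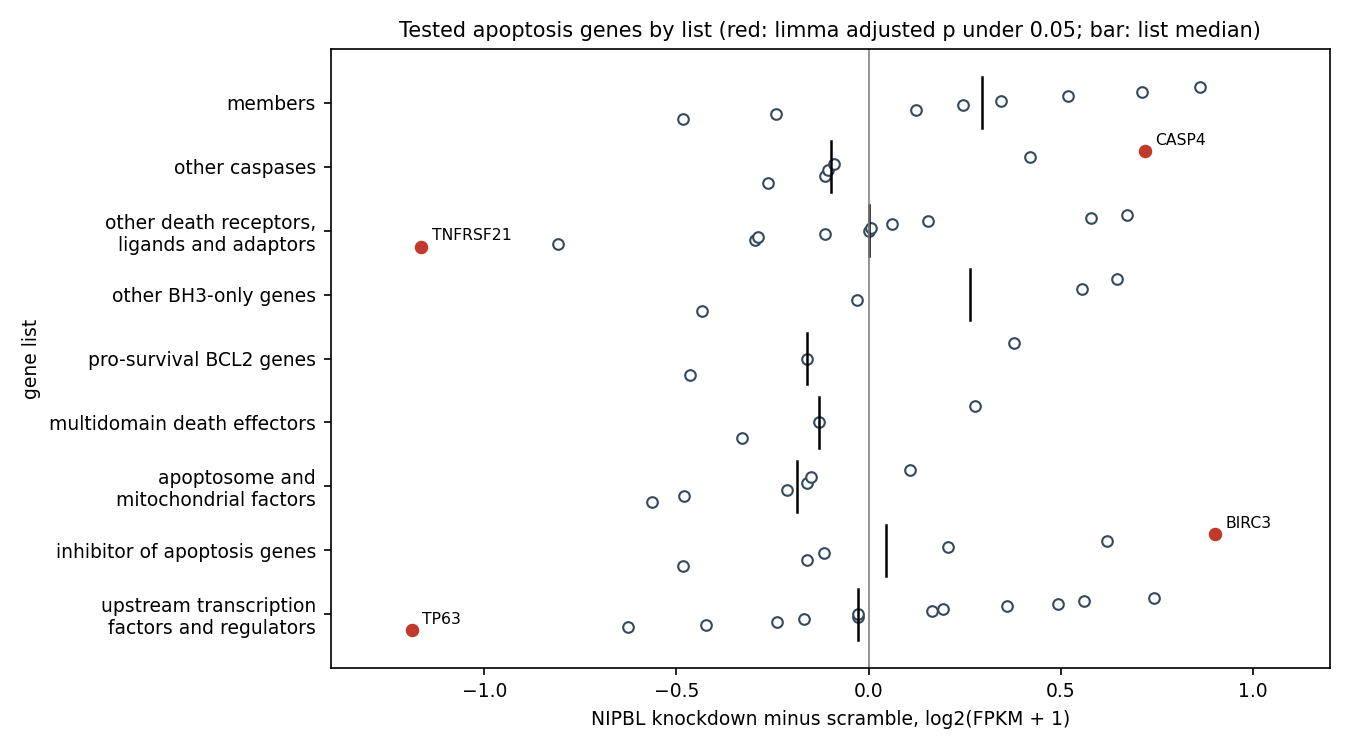
Log2(FPKM + 1) difference of NIPBL knockdown from scramble on the horizontal axis for the 8 members and for the tested genes of 8 apoptosis lists, with red points at a limma adjusted p under 0.05 and a bar at each list's median. Of the 52 list genes CASP4, TNFRSF21, BIRC3 and TP63 are red, and 0 of the 8 members are.

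**Figure D4:**
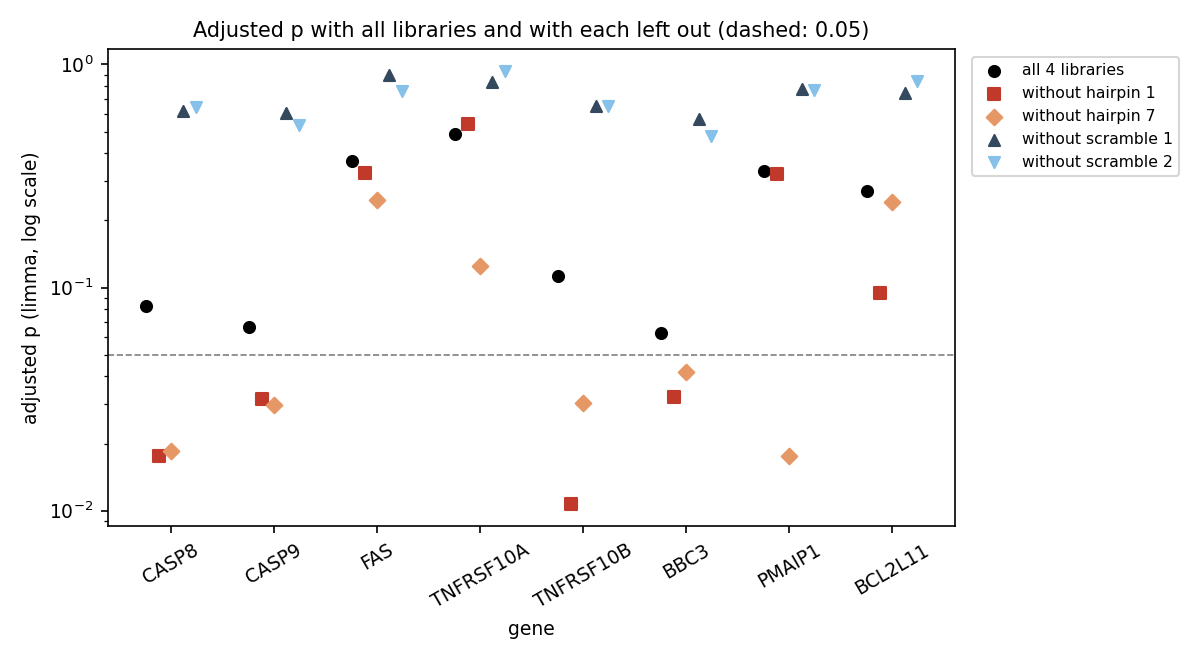
Limma adjusted p of each member on a log scale with all 4 libraries and with each library left out, with a dashed line at 0.05. With all 4 libraries every member lies above the line; CASP8, CASP9, TNFRSF10B and BBC3 lie below it without either hairpin library and above it without either scramble library, and PMAIP1 lies below it only without hairpin 7.

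The plot of adjusted p with libraries left out shows how far the members' tests rest on single libraries. Without either hairpin, CASP8, CASP9, TNFRSF10B and BBC3 passed, with adjusted p between 0.0107 and 0.042 (limma), and the spread of the remaining hairpin is then taken from scramble. In those fits 35.3% of all genes tested passed without hairpin 1 and 22.7% without hairpin 7. Without scramble 1 or scramble 2 none of the 8 passed, nor did any other gene tested, and BBC3 had the lowest adjusted p of the 8 members. The sign of every member was kept in each of these fits, which groups that do not overlap fix beforehand.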

How the data were processed

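Gene expression in 2 NIPBL knockdown and 2 scramble libraries was given as FPKM, made by the authors and deposited with 2 decimals. STAR, an aligner, and RSEM, an abundance estimator, are named without versions in the submitters' processing notes. No genome build, annotation, strand setting or filter is named by the sources used here. Rows without a gene name, 291033 of 344810, made up 8.47% to 9.27% of the summed FPKM and were left out. The depth is unknown, so no counting intervals are given.

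A limma model (version 3.58.1, R 4.3.3, lmFit and a trended eBayes) was fitted to log2(FPKM + 1) of the 12834 genes whose mean reached 1 FPKM, with 2 residual and 2.87 prior degrees of freedom. Two-sided p-values had Benjamini-Hochberg adjustment across all of these genes. An exact permutation test of 2 against 2 cannot go below p = 0.333. The fit was tested on simulated data. The members and lists were chosen with earlier results of these data known. Genes named were the 8 members, NIPBL, each list gene that passed and otherwise the 2 with the smallest p of its list, and the 3 genes nearest to the member with the smallest p; any other gene is marked as named after its values were seen, apart from marker and overlapping genes. Chromosomes, transcripts and overlapping genes come from GENCODE 29 by identifier, and promoters, matched by symbol for 6 of 8 members, from RefSeq (GRCh38.p14). Proteins' sequences were not used here. Results of some list genes are not reported here. Alternatives were another pseudocount, other filters, other scalings, no mean trend, averaged scramble libraries and leaving out each library.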

Additional observations from a re-analysis of the deposited data

How the results depend on the processing

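All 8 members kept the sign of their log2 change under each alternative that gave a value. Other filters, no mean trend and averaged scramble libraries leave the log2 change as it is. For another pseudocount and for leaving out a library, groups that do not overlap fix the sign beforehand. Only the other scalings could have changed a sign. Outside the fits that leave out a library, 0 of 54 values passed. BBC3 and FAS left the test with a mean of at least 5 FPKM. Precision is limited by 2 libraries a group, and the depth is unknown.

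With no filter on low values limma called 1 gene higher and 0 lower (4275 at an unadjusted p under 0.05), 0 list genes in either direction, and NIPBL lost its call at a log2 change of -1.42 (adjusted p = 0.118). With the scramble libraries averaged it called 0 higher and 0 lower (975 at an unadjusted p under 0.05), 0 list genes, and NIPBL lost its call at -1.42 (adjusted p = 0.281). With FPKM rescaled to the same sum 140 genes were higher and 89 lower, with 1 list gene higher and 1 lower; without a mean trend 1 list gene was higher and 1 lower. Members at least 1.5-fold above both scramble libraries numbered 2 with a pseudocount of 0.1 or with rescaling, and 0 with a mean of at least 5 FPKM, where 1 member lay below both. With averaged scramble libraries 2 members were at least 1.5-fold above the average. The share of all genes tested with a 1.5-fold gap was computed only without these alternatives, at 3.3% above and 2.28% below. The counts of members at a mean of at least 5 FPKM follow from BBC3 and FAS leaving the test. The cause of the other differences was not tested.

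With each library left out in turn, between 0 and 2013 genes were called higher and between 0 and 2519 lower (1060 and 1052 genes lay at an unadjusted p under 0.05 where 0 were called). List genes called higher ranged between 0 and 12 and lower between 0 and 17. Members were called only without a hairpin library, where a larger share of all genes tested was called than with all 4 libraries. Members at least 1.5-fold above ranged between 1 and 4 and below between 0 and 1. The share of all genes tested with such a gap was not computed for these fits. Log2 changes ranged between 0.41 and 0.63 for CASP8, 0.62 and 0.81 for CASP9, -0.64 and -0.33 for TNFRSF10B, 0.76 and 0.96 for BBC3, 0.061 and 0.63 for PMAIP1, -0.34 and -0.14 for FAS, 0.055 and 0.19 for TNFRSF10A, 0.18 and 0.31 for BCL2L11, and -1.57 and -1.27 for NIPBL. No paired analysis was possible because the labels give no replicate numbers that pair knockdown with scramble libraries.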
